A study of Mus musculus with 24 samples.

Results

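The colon epithelium of old mice was compared with that of young adults, using the 2 libraries of 24-month colon (A and B) and the 3 libraries of 4-month colon (A, B and C), 5 of the 24 RNA-seq libraries in the study. The members were taken from the library titles. All mice were untreated Lgr5-EGFP-IRES-CreERT2 knock-ins, a strain in which the stem cell gene Lgr5 drives a green fluorescent protein and an inducible Cre, and the strain was the same at both ages. RNA came from dissociated colonic epithelium that had not been sorted for the reporter. Cells were pooled, and the number of mice behind each RNA library is not given in the sources used here, and the spread on which p-values rest may therefore be technical. In such bulk RNA, fewer cells of a type and less RNA per cell cannot be told apart.

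The colonic epithelium is renewed from stem cells at the base of the crypts, whose daughters become absorptive colonocytes, mucus-secreting goblet cells, hormone-secreting enteroendocrine cells and chemosensory tuft cells. Its regional identity is held by transcription factors such as Cdx2 in the colon and Gata4 and Pdx1 in the proximal small intestine. Epithelial cells also answer interferon, which induces guanylate-binding proteins, oligoadenylate synthetases and antigen presentation. A few loci, among them the Dlk1-Dio3 cluster and Peg3, are imprinted, so that only the allele from a given parent is normally active.

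The 5 libraries held between 35312446 and 37897787 counts, and levels are given below as CPM, the count relative to the library total after scaling with edgeR's TMM factors. Gata4, which is high in the small intestine, had at most 3.74 CPM in any of the 5 libraries and 0.865 CPM in 4-month B, against at least 83.9 CPM in the 24-month and 95.2 CPM in the 4-month lower small intestine. The summed level of 7 general epithelial genes, among them Epcam and Cdh1, was 9580 and 10002 CPM at 24 months and 10071 to 11182 CPM at 4 months. Enteric neuron and glia markers summed to at most 9.23 CPM in any of the 5 libraries and fibroblast and smooth muscle markers to at most 147 CPM. Mitochondrial genes took 13.69% to 14.37% of the counts at 24 months and 11.04% to 12.47% at 4 months. Genes of the Y chromosome had 6288 counts in 24-month B and 7301 in 4-month B against at most 12 in the other libraries of the comparison. The 4-month C library stood apart from 4-month A and B: 20 circadian clock genes summed to 1167 CPM in it against 658 and 727 CPM, and 51 interferon response genes to 1031 CPM against 1568 and 1685 CPM. The part of these differences in the results below was not tested, and the counts of genes are given with and without these libraries.

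Of 17491 genes tested, 13 rose and 13 fell between 4 and 24 months (edgeR's quasi-likelihood test on all 24 libraries, Benjamini-Hochberg adjusted p under 0.05). This is a background of 0.0743% in each direction. The 26 genes lie on 14 chromosomes, and 19 of them stayed under a mean of 10 CPM at both ages. In all 26 the 2 old libraries lay outside the range of the 3 young ones, which was also so for 12.9% of all tested genes in the higher direction and 13.1% in the lower. The 12-month mean, from 3 libraries, lay between the means of the 2 ages for 25 of the 26, the exception being Ccr2. These genes were picked for a gap between those 2 means, and the share over all genes was not computed. The 12-month position is therefore no separate support for the calls. The count of 13 higher genes became 4 and 5 without 24-month A and B and 4, 5 and 7 without 4-month A, B and C. The count of 13 lower genes became 2 without either 24-month library and 10, 10 and 18 without 4-month A, B and C. Rps4y2, Gata4 and Col18a1 passed whichever of the 5 libraries was left out, whereas 7 of the 26, namely Dmrta2, Lhfpl4, Nxn, Pcdhb16, Gm16854, Peg3 and Ccr2, passed in none of these fits.

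**Figure D1:**
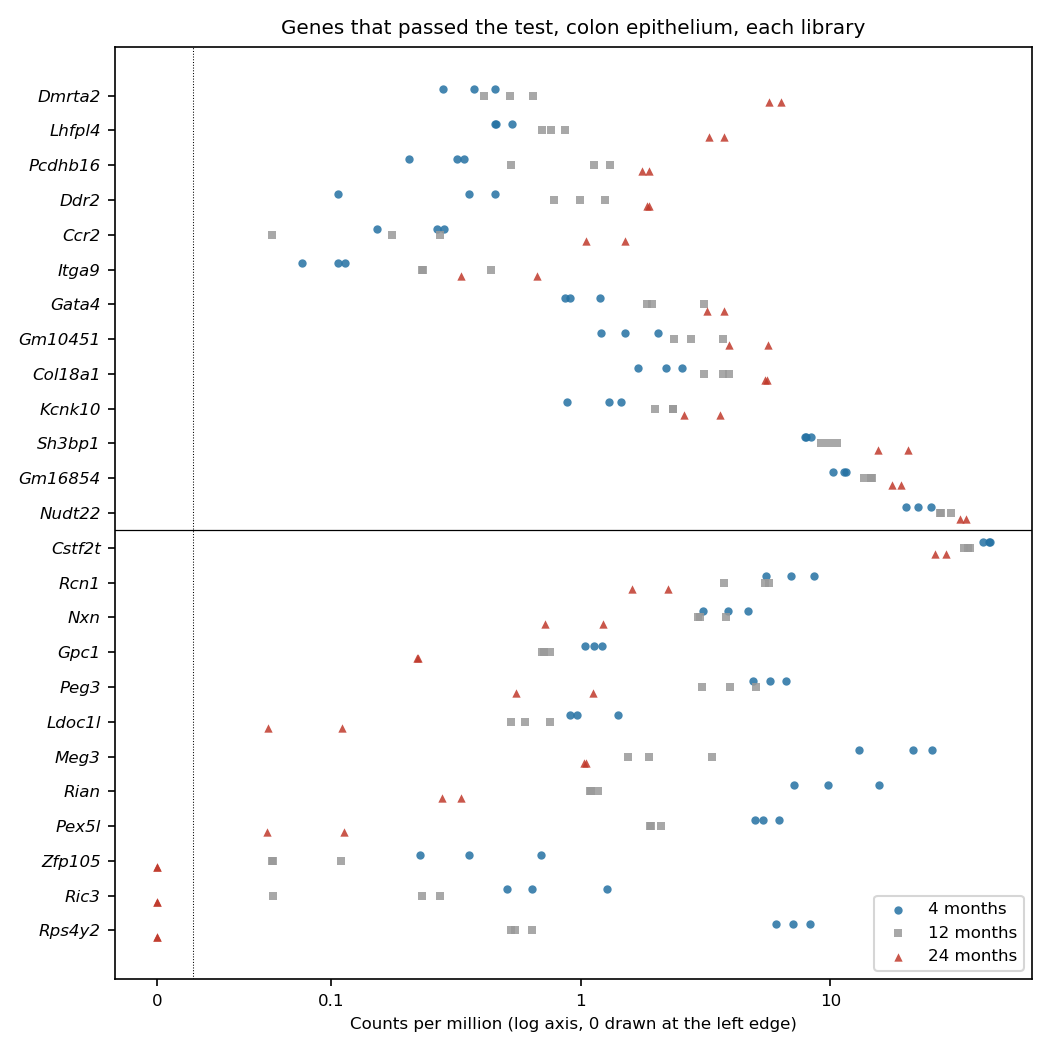
CPM on a log axis of 25 of the 26 genes that passed, in each colon library, with 4-month libraries as circles, 12-month libraries as grey squares and 24-month libraries as triangles; values of 0 are drawn at the left edge. The 13 genes above the line rose and the 12 below it fell, and Rps4y2, Ric3 and Zfp105 sit at 0 in both 24-month libraries.

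The largest loss was that of Rps4y2, a copy of the gene for ribosomal protein S4 that lies on chromosome 6 (mm9, 148303178 to 148304120, plus strand). It had 0 counts in both 24-month libraries and 313, 238 and 251 counts in 4-month A, B and C, or 8.32, 6.06 and 7.10 CPM. The ages did not overlap, and the old level was at least 172-fold lower with 3 counts over both old libraries taken as the floor (adjusted p = 1.33e-09, edgeR's quasi-likelihood test). Both mates of a pair add to the count, so 3 counts can stand for fewer than 3 fragments. This bound and the later ones set in the same way may therefore be too high. At 12 months the 3 libraries had 0.526 to 0.635 CPM. Its X-linked relative Rps4x, which encodes the main form of the protein, had 306 and 302 CPM at 24 months and 281, 282 and 268 CPM at 4 months (log2 fold change 0.14, standard error (SE) 0.16, adjusted p = 1.0).

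Because reads can be split between near-identical copies, the coding sequences of both transcripts in the mm9 annotation were compared base by base from the start codon. They differed at 161 of 789 positions, an identity of 79.6%, and the longest run without a difference was 35 bases. The stretch of 120 bases with the most differences, coding positions 484 to 603, is shown for both, with the 35 bases that differ in capitals.
Rps4x: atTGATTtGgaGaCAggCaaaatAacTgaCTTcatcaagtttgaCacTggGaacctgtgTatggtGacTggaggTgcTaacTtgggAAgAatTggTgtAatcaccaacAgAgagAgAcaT
Rps4y2: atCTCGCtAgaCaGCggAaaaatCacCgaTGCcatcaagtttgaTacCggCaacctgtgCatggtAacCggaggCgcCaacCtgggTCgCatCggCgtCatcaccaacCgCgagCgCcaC
How the aligner placed reads from the stretches that the copies share is not given in the sources used here.

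Imprinted genes of the Dlk1-Dio3 cluster on chromosome 12 lay lower together. Of 7 genes of the cluster looked for, 4 had enough counts to be tested, and in all 4 both old libraries were below all young ones, against 13.1% of all genes. Begain, Rtl1 and Dio3 had at most 4 counts in any of the 5 libraries. The noncoding RNA Meg3 (mm9, 110779211 to 110809936, plus strand) had 1.03 and 1.05 CPM at 24 months and 13.0, 21.5 and 25.5 CPM at 4 months. The noncoding RNA Rian, which hosts small nucleolar RNAs, had 0.279 and 0.331 CPM at 24 months and 7.18, 15.7 and 9.82 CPM at 4 months. These 2 of the 4 genes passed, against 0.0743% of all genes in the lower direction. They were 19.2-fold and 35.4-fold lower in the old colon (log2 fold changes -4.26 and -5.15, SEs 0.74 and 0.85, adjusted p = 0.0187 and 0.0134 from edgeR's quasi-likelihood test).

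Dlk1, a protein-coding gene of the cluster expressed from the paternal allele, encodes a Notch ligand-like transmembrane protein. It had 0 counts in both old libraries and 2.23, 2.95 and 1.36 CPM in 4-month A, B and C, which makes it at least 52.5-fold lower. Mirg, a noncoding host of microRNAs, had 2 counts in each old library and 0.479, 1.25 and 0.820 CPM in the young ones. Dlk1 and Mirg did not pass in the fit to all 24 libraries (adjusted p = 0.0697 and 0.227). All 4 measured genes of the cluster passed when the 8 colon libraries were fitted alone, against 0.162% of genes in the lower direction there. By 12 months Meg3 had 1.55 to 3.35 CPM and Rian 1.09 to 1.17 CPM, and both differed from 4 months (adjusted p = 0.0308 and 0.04), a contrast that shares the 4-month libraries. The median log2 fold change of the 4 genes was -4.70, also with Dlk1 set to its bound, against -0.003 over all genes tested. Reads from Meg3 and from the antisense gene Gm17639 cannot be told apart without strand, and Gm17639 itself had 0 counts in these libraries.

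**Figure D2:**
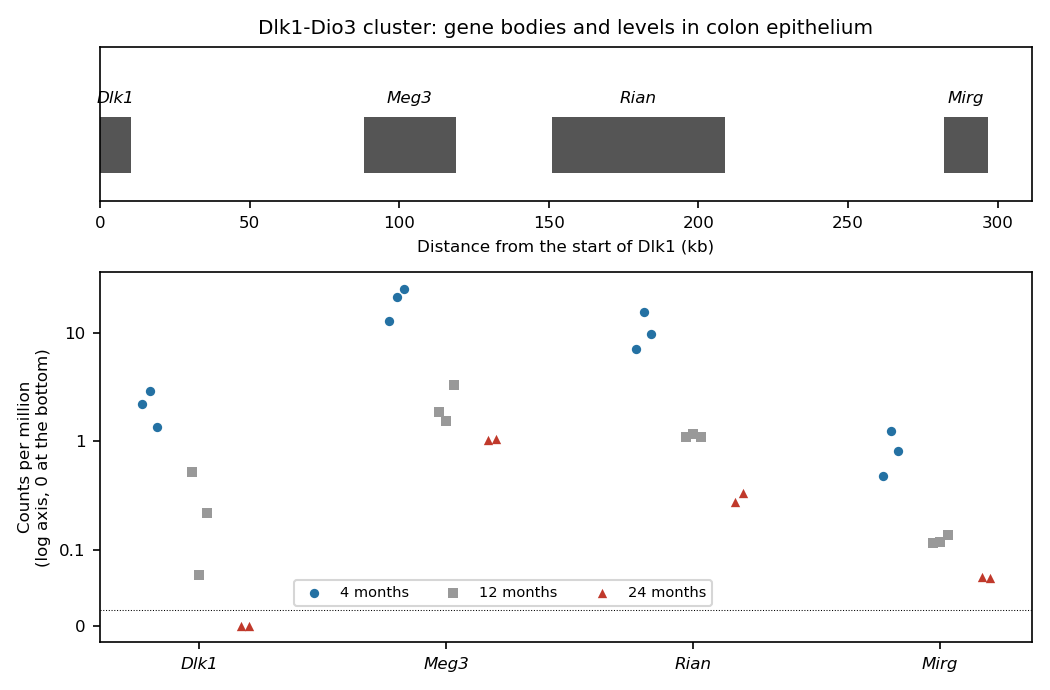
Gene bodies of Dlk1, Meg3, Rian and Mirg as distances in kb from the start of Dlk1 (top), and their CPM on a log axis in each colon library at 4, 12 and 24 months, with 0 at the bottom (bottom). For each gene both 24-month libraries lie below all 4-month libraries, and Dlk1 is at 0 in both.

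The other imprinted genes did not share this direction. Of 21 measured, 10 had a positive and 11 a negative log2 fold change, with a median of -0.09 (0.00 with H19, which had no counts at 24 months, at its bound). Of the 21 genes 1 passed, against 0.0743% of all genes in the lower direction. That gene was Peg3, a paternally expressed zinc finger gene on chromosome 7, with 1.12 and 0.551 CPM at 24 months and 4.89, 5.75 and 6.65 CPM at 4 months (log2 fold change -2.79, SE 0.54, adjusted p = 0.0432). The young libraries were all above the old. Igf2, a paternally expressed growth factor gene, had 2.62 and 2.73 CPM at 24 months and 1.60, 1.32 and 1.08 CPM at 4 months and did not pass (log2 fold change 1.00, SE 0.64, adjusted p = 1.0).

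Transcription factor genes were found on both sides. Gata4, which specifies the proximal small intestine, had 3.74 and 3.20 CPM at 24 months and 0.904, 0.865 and 1.19 CPM at 4 months. It rose 3.52-fold (adjusted p = 0.00127, edgeR's quasi-likelihood test), and its 12-month libraries, at 1.85 to 3.11 CPM, lay between the ages. The old colon remained far below the small intestine, where Gata4 averaged 224 ± 8.88 CPM in the upper (USI) and 105 ± 30.4 CPM in the lower part (LSI) at 24 months (SD, n = 2 each). Dmrta2, whose product patterns the embryonic forebrain, had 5.66 and 6.34 CPM at 24 months and between 0.280 and 0.453 CPM at 4 months, and its 12-month libraries had 0.409 to 0.642 CPM. Its level in the old colon was thus above that in all 6 other colon libraries, and it rose 16.2-fold (adjusted p = 0.0202).

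Zfp105, a zinc finger gene, had 0 counts at 24 months and 26, 14 and 8 counts at 4 months, and was at least 10.2-fold lower (adjusted p = 0.00667).

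Of 14 measured genes of proximal identity, Gata4 was the 1 that passed, against 0.0743% of all genes in the higher direction. The median log2 fold change was 0.10, with a range from -1.30 to 2.16. Gata4 and Pdx1 were the 2 that passed in the colon libraries alone, against 0.156% of the 16065 genes in the higher direction. Pdx1, a duodenal and pancreatic transcription factor gene, had 4.66 and 4.35 CPM at 24 months and 0.957, 1.32 and 0.736 CPM at 4 months, and passed only in the colon libraries alone (log2 fold change 2.15, SE 0.33, adjusted p = 0.0288 there and 0.0654 in the main fit). Of 21 genes of distal colon identity none passed in edgeR's quasi-likelihood test, with a median of 0.03.

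Genes of the extracellular matrix and its receptors changed in both directions. Of 34 measured, 3 passed as higher and 1 as lower, against 0.0743% of all genes in each direction. The log2 fold change was negative in 23, and the list median was -0.12. Both old libraries lay below all young ones in 11 (32.4%), against 13.1% of all genes. They lay above all young ones in 7 (20.6%), against 12.9% of all genes. Ddr2, a receptor tyrosine kinase for fibrillar collagen, had 1.84 and 1.87 CPM at 24 months and 0.106, 0.356 and 0.453 CPM at 4 months, a 6.05-fold rise (adjusted p = 0.0146). Col18a1, which encodes a basement membrane collagen, had 5.60 and 5.46 CPM at 24 months and 1.70, 2.19 and 2.55 CPM at 4 months, a 2.58-fold rise (adjusted p = 0.00167). Itga9, an integrin subunit gene, had 0.669 and 0.331 CPM against 0.0763 to 0.113 CPM, so that the young values rested on 3 or 4 counts per library (log2 fold change 2.31, SE 0.43, adjusted p = 0.0347). In all 3 the old libraries were above the young.

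Gpc1, a heparan sulfate proteoglycan anchored in the membrane, had 0.223 and 0.220 CPM at 24 months and 1.22, 1.04 and 1.13 CPM at 4 months, a 5.04-fold fall (adjusted p = 0.00172). The integrin Itgb6, found in epithelia, had a log2 fold change of -0.39 and did not pass (adjusted p = 0.608). Counting did not use strand, so reads of Col18a1, Ddr2, Itga9, Rps4y2 and Ric3 cannot be told apart from those of the genes that overlap them on the opposite strand. The same holds for Pex5l, Cstf2t and Sh3bp1, whose opposite-strand genes had at most 5 counts at either age. Sh3bp1 also overlaps Pdxp on the same strand.

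Pex5l, which is related to the peroxisomal import receptor and regulates pacemaker channels, had 4 and 2 counts at 24 months and 202, 197 and 221 counts at 4 months, or 0.112 and 0.0551 CPM against 5.01 to 6.25 CPM. The log2 fold change was -6.00 (SE 0.84, adjusted p = 0.00229), and its 12-month libraries had 1.90 to 2.10 CPM. Ric3, a chaperone of acetylcholine receptors, had 0 counts at 24 months and 19, 25 and 45 counts at 4 months and was at least 19.4-fold lower (adjusted p = 0.00183). Of 8 measured enteric neuron and glia genes none passed in edgeR's quasi-likelihood test, and they summed to 9.23 and 8.13 CPM at 24 months and 8.12 to 8.35 CPM at 4 months.

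Lhfpl4, which acts at inhibitory synapses, had 3.76 and 3.25 CPM at 24 months and 0.453 to 0.532 CPM at 4 months, a 7.25-fold rise (adjusted p = 0.0244). The potassium channel gene Kcnk10 had 3.60 and 2.59 CPM against 0.877 to 1.45 CPM (log2 fold change 1.35, adjusted p = 0.0196). The protocadherin gene Pcdhb16 had 1.87 and 1.76 CPM against 0.204 to 0.339 CPM (log2 fold change 2.65, adjusted p = 0.0347). Its family of neighbouring, similar genes makes the assignment of reads to it uncertain. For each of the 3 genes every old library was above every young library.

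Genes with general cell functions made up most of the rest. Rcn1, which binds calcium in the endoplasmic reticulum, had 2.23 and 1.60 CPM at 24 months and 8.62, 5.55 and 6.93 CPM at 4 months (log2 fold change -1.88, SE 0.24, adjusted p = 0.00138). It was the only 1 of 29 measured chaperone genes of this compartment that passed, against 0.0743% of all genes in the lower direction. The list median was 0.09. Nxn, a thioredoxin-family oxidoreductase that acts on Wnt signalling, had 1.23 and 0.717 CPM against 3.10 to 4.70 CPM, a 4.00-fold fall (adjusted p = 0.0347). Cstf2t, a polyadenylation factor gene, had 26.4 and 29.1 CPM against 41.1 to 43.8 CPM, a fall by 1.54-fold with little spread within an age (adjusted p = 0.00609). Both genes were lower in each old library than in each young library.

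Among genes that rose, Sh3bp1, a regulator of Rac signalling at cell junctions, had 20.5 and 15.5 CPM at 24 months and 7.89 to 8.38 CPM at 4 months (2.23-fold, adjusted p = 0.00667). Nudt22, a sugar nucleotide hydrolase gene, had 35.1 and 33.2 CPM against 20.1 to 25.3 CPM (1.51-fold, adjusted p = 0.0277). In both genes the old libraries were above the young. The predicted gene Gm10451 rose 3.02-fold (adjusted p = 0.00209) and the long noncoding RNA Gm16854 had 17.7 and 19.2 CPM against 10.3 to 11.6 CPM, a 1.67-fold rise (adjusted p = 0.0414). Ldoc1l, a gene derived from a retrotransposon, had 2 and 4 counts at 24 months and 34, 38 and 50 at 4 months (log2 fold change -3.66, SE 0.61, adjusted p = 0.0145). It was the 1 of 7 measured genes of such origin that passed, against 0.0743% of all genes in the lower direction. The median of that list was 0.51.

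**Figure D3:**
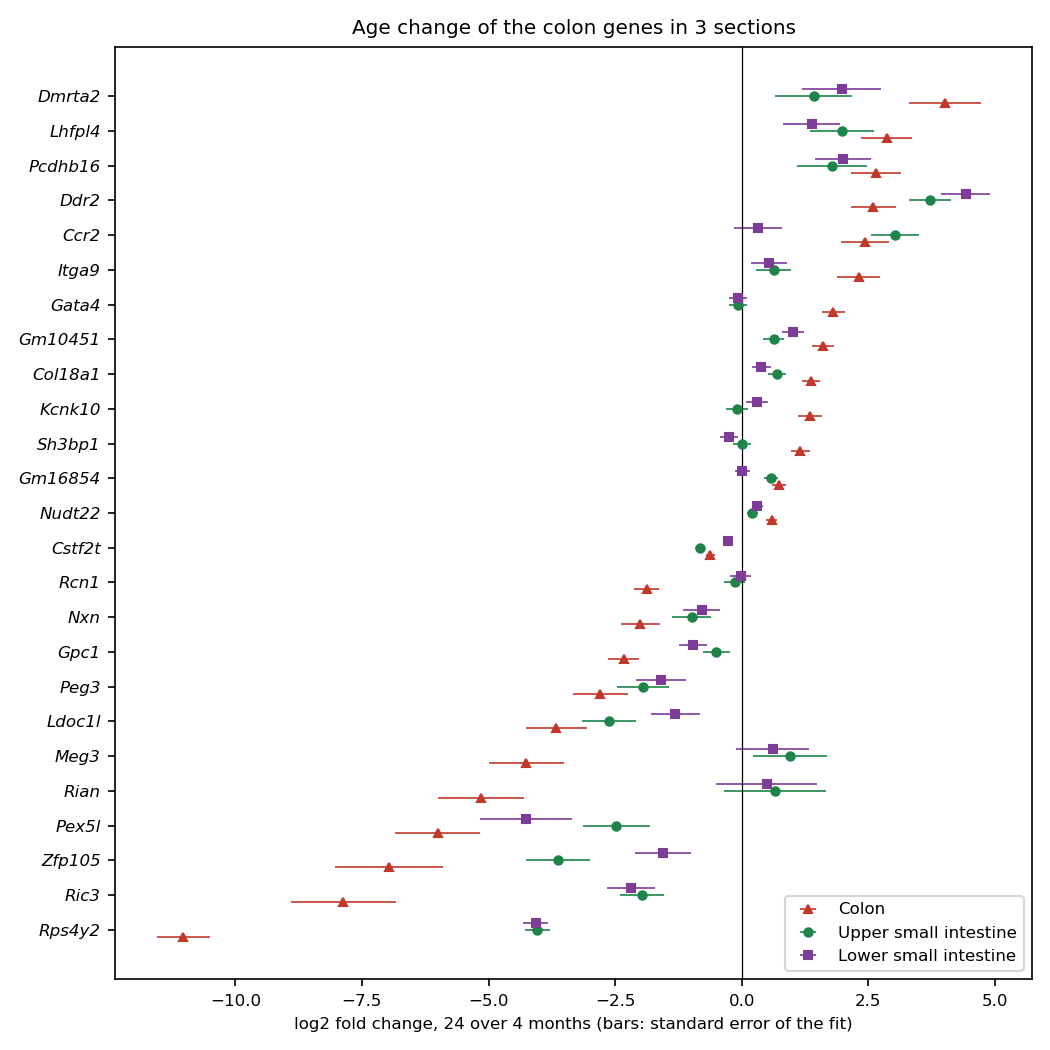
Log2 fold change of 24 over 4 months, with the standard error of the fit, for 25 of the 26 colon genes in the colon (triangles), the upper small intestine (circles) and the lower small intestine (squares). Rps4y2 and Ddr2 changed in the same direction in all 3 sections. Meg3 and Rian lie below 0 in the colon and above it in the small intestine, where neither passed. Their small-intestinal means at 4 and 24 months were at most 0.841 CPM (Meg3) and 0.198 CPM (Rian), so the sign there is uncertain.

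The same contrast in the small intestine called 46 genes in the USI and 14 in the LSI, or 0.263% and 0.0800% of those tested. Of the 26 colon genes, 22 had the same sign in the USI and 21 in the LSI. The share of all tested genes with the same sign was not computed, so these counts have no background. Of the 26, 6 passed in the USI and 2 in the LSI. Rps4y2 and Ddr2 were the genes that passed in both, with log2 fold changes of -4.04 and 3.72 in the USI and -4.07 and 4.42 in the LSI. Ccr2, Ldoc1l, Zfp105 and Cstf2t passed in the USI. The difference in the age effect itself was tested as an interaction. It passed for 2 genes between colon and USI and for 2 between colon and LSI, each 0.0114% of genes tested, and these were Rps4y2 and Gata4 both times. The sections may not be independent: colon libraries correlated with small intestine libraries of the same age and letter, in their deviations from the group means, with r from 0.0392 to 0.289, and Y-linked counts were high in the B libraries of all 3 sections at both ages. With the letter as a replicate block 8 and 7 genes passed the interactions.

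The loss of Rps4y2 was greater in the colon by -6.99 (USI) and -6.96 (LSI) on the fitted log2 scale (adjusted p = 0.00116 and 0.00128), though with 0 counts in the old colon the size of that difference depends on the model's prior count. Gata4 had no age effect that passed in either part of the small intestine (log2 fold change -0.07 in both), and the difference from the colon was 1.89 in both comparisons (adjusted p = 0.0322 and 0.0328). Meg3 had positive log2 fold changes of 0.96 (SE 0.73) in the USI and 0.61 (SE 0.72) in the LSI, which did not pass. The interaction did not pass either (adjusted p = 0.138 and 0.177). Its means there were at most 0.841 CPM at 4 and 24 months, so the sign is uncertain. With all libraries 2 genes passed each interaction after adjustment in edgeR's quasi-likelihood test, and 1330 and 1037 had an unadjusted p under 0.05. Neither Rps4y2 nor Gata4 kept its interaction without the 6 B libraries at 4 and 24 months, which hold the Y-linked counts. That fit has no replicate in any 24-month group, so the loss cannot be traced to the Y-linked counts.

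Interferon response genes lay lower in the old colon as a group without any member passing. Of 51 measured, 50 had a negative log2 fold change, and the median was -1.02 against -0.003 over all genes. In 31 of the 51 both old libraries were below all young ones and in 0 both were above, against 13.1% and 12.9% of all genes. The summed level was 904 and 912 CPM at 24 months and 1568, 1685 and 1031 CPM at 4 months, so that 4-month C, the library with the different clock state, lay much closer to the old libraries than to the other young ones. The 12-month libraries had 882 to 1079 CPM. Without 4-month C the median was -1.33, and without A or B it was -0.88 and -0.83.

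The members with the smallest p were the guanylate-binding proteins Gbp2 and Gbp7, GTPases that act against intracellular pathogens. Gbp2 had 1.28 and 2.04 CPM at 24 months and 13.6, 19.4 and 5.83 CPM at 4 months (log2 fold change -2.96, SE 0.67, adjusted p = 0.116). Gbp7 had 2.12 and 1.93 CPM against 11.3, 12.9 and 4.75 CPM (log2 fold change -2.25, SE 0.52, adjusted p = 0.118). In both genes 4-month C was the lowest young library, yet above the old ones.

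The chemokine gene Cxcl9 had 0.112 and 0.0551 CPM at 24 months and 1.68, 1.63 and 0.339 CPM at 4 months, and the antiviral gene Oasl2 had 17.5 and 12.4 CPM against 75.8, 70.2 and 27.1 CPM. Neither passed (adjusted p = 0.158 and 0.227). When the 8 colon libraries were fitted alone, 3 members passed as lower, namely Gbp2, Gbp7 and the oligoadenylate synthetase gene Oas3 (adjusted p = 0.0351, 0.0495 and 0.0393), against 0.162% of the 16065 genes tested in that fit.

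The promoters of these 3 genes are shown because each holds the core of the interferon-stimulated response element, a motif of interferon-induced promoters, upstream of its start site. The 120 bases before the RefSeq start are given 5′ to 3′ on the gene's own strand in the build GRCm38.p6, a later build than that of the counts, with the motif, GAAA and GAAA with any 2 bases between them on either strand, in capitals.
Gbp2, chr3:142620543-142620662, plus strand: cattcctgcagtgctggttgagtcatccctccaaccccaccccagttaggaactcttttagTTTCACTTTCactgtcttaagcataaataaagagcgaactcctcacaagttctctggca
Gbp7, chr3:142530216-142530335, plus strand: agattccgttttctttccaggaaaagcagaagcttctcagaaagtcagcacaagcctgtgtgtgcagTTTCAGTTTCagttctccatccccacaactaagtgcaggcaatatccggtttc
Oas3, chr5:120777660-120777779, minus strand: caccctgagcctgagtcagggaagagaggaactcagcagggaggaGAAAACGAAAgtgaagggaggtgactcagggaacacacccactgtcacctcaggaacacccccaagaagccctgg
The motif began 59, 53 and 75 bases before the start sites. On either strand it occurred in 20 of the 35 interferon list members that have a promoter in the RefSeq table, whose windows are 300 bases long, against 3.99% of all 27025 genes and 3.44% of their 32851 promoters. The motif TTCNNNGAA, known as the gamma-activated site, occurred in 12 of the 35, against 9.55% of all genes and 8.30% of all promoters. The match is of letters only and says nothing of binding in these cells.

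**Figure D4:**
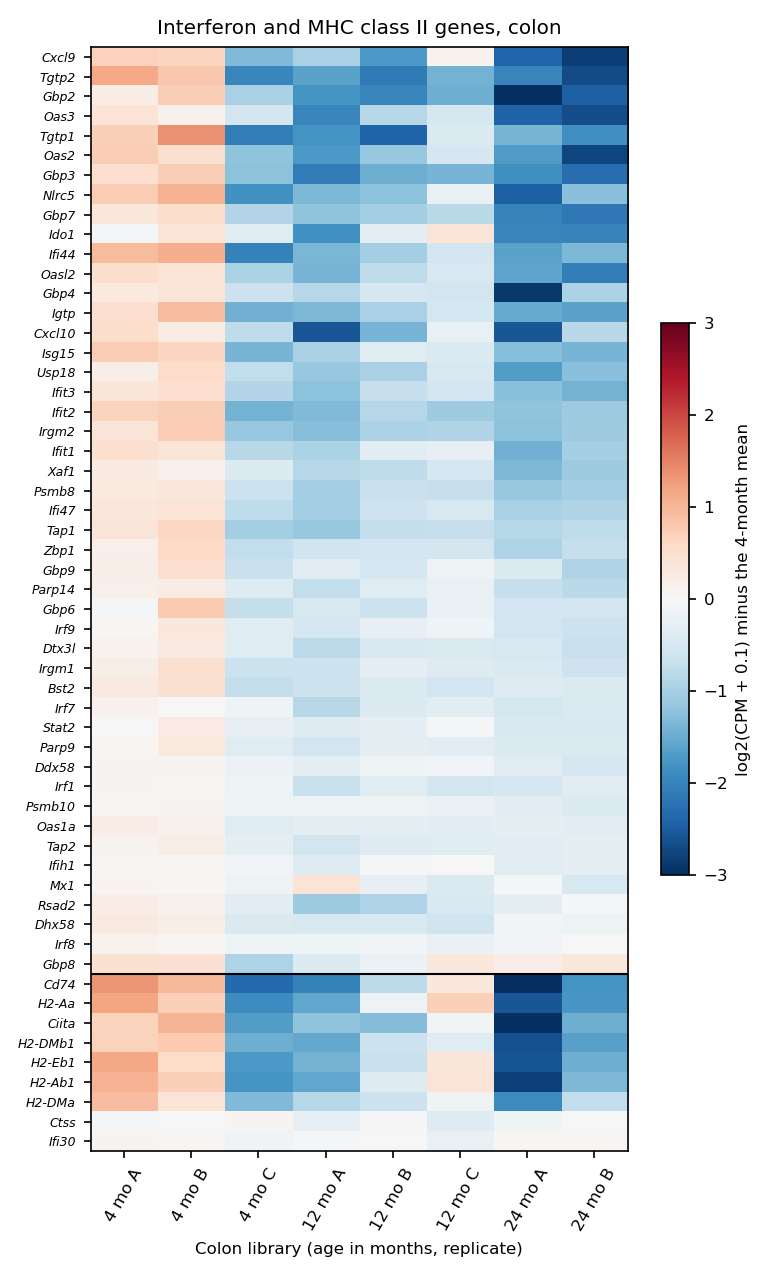
Log2(CPM + 0.1) minus the mean of the 3 young libraries for 47 interferon response genes (above the line) and 9 MHC class II genes (below it) with a 4-month mean of at least 1 CPM, in each colon library, where blue is lower. Most rows are red in 4-month A and B and blue in 4-month C and in the 12-month and 24-month libraries.

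MHC class II genes, which present peptides to CD4 T cells, followed 4-month C even more closely. Of 13 measured, 10 had a negative log2 fold change with a median of -1.52, none passed in edgeR's quasi-likelihood test, and in 1, H2-DMb1, the ages did not overlap (7.69%, against 13.1% of all genes). The invariant chain gene Cd74 had 9.48 and 22.4 CPM at 24 months, 198 and 157 CPM in 4-month A and B and 15.5 CPM in 4-month C. The class II transactivator Ciita had 0.335 and 1.19 CPM at 24 months and 5.56, 7.10 and 1.02 CPM at 4 months. In both genes 4-month C lay within the range of the old libraries. The summed class II level was 318 and 355 CPM at 24 months, 648 and 578 CPM in 4-month A and B and 345 CPM in 4-month C.

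Of 12 genes of MHC class I presentation, 7 had both old values below the 3 young ones against 13.1% of all genes, with a smaller median of -0.20. Their summed level was 4154 and 4050 CPM at 24 months and 4391, 4626 and 3694 CPM in 4-month A, B and C. By this sum 4-month C lay below both old libraries. The chaperone gene Tapbpl, which edits class I peptides, had 22.6 and 23 CPM at 24 months and 37.5, 39.5 and 35.4 CPM at 4 months. For this gene, unlike for the sum, 4-month C stayed with the young group. Tapbpl passed in the colon libraries alone and not in the main fit (log2 fold change -0.72, adjusted p = 0.00912 and 0.116), and its reads cannot be told apart from those of an overlapping gene on the opposite strand.

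T cell and intraepithelial lymphocyte genes summed to 33.9 and 38.1 CPM at 24 months and 40.9 to 52.3 CPM at 4 months. Of 20 measured, 8 were lower without overlap against 13.1% of all genes and 0 passed in edgeR's quasi-likelihood test, with a median of -0.47 (-0.45 with the 1 member at 0 at its bound). Their part in the interferon and MHC class II values was not tested. B and plasma cell genes summed to 219 and 240 CPM at 24 months and 214 to 224 CPM at 4 months, so the sums overlapped. Of 13 measured, 11 had a positive log2 fold change, with a median of 0.62. Higher without overlap were 2 (15.4%), close to the 12.9% of all genes. Macrophage and monocyte genes summed to 48.7 and 42.7 CPM at 24 months and 39.9 to 48.3 CPM at 4 months. Their median was -0.28 (-0.07 with 3 members at 0 at their bounds). Of 19 measured, 1 passed, against 0.0743% of all genes in the higher direction. This was Ccr2, a chemokine receptor of monocytes, with 1.51 and 1.05 CPM at 24 months and 0.266, 0.153 and 0.283 CPM at 4 months, a 5.42-fold rise (adjusted p = 0.0432). Its 12-month libraries, at 0.0577 to 0.273 CPM, overlapped the young ones. The complement gene C1qa, another macrophage marker, had 0.223 and 0.441 CPM at 24 months and 0.967 to 2.45 CPM at 4 months and did not pass (adjusted p = 0.488).

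Genes of cholesterol synthesis and uptake lay slightly lower. Of 21 measured, 20 had a negative log2 fold change, with a median of -0.21, and 11 were lower without overlap against 13.1% of all genes. None passed in edgeR's quasi-likelihood test.

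Immediate early and dissociation stress genes lay higher. Of 31 measured, 24 had a positive log2 fold change, with a median of 0.39, and 19 were higher without overlap against 12.9% of all genes, but none passed in edgeR's quasi-likelihood test. Egr2, an early transcription factor gene, had 1.51 and 3.20 CPM at 24 months and 0.505, 1.02 and 0.934 CPM at 4 months (log2 fold change 1.52, SE 0.38, adjusted p = 0.184). Fosb had 336 and 470 CPM against 211 to 230 CPM and reached 390 to 1048 CPM at 12 months. Such genes respond to handling of tissue, and the part of cell isolation in their values was not tested.

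Paneth cell genes, which mark a small-intestinal cell type, were detectable at both ages at low levels. Of 15 measured, 10 were higher without overlap against 12.9% of all genes, none passed in edgeR's quasi-likelihood test, and the median log2 fold change was 1.36. Their summed level was 413 and 94.6 CPM in 24-month A and B and 74.7, 39.7 and 141 CPM in 4-month A, B and C. The sums of the 2 ages thus overlapped, with 24-month A the highest of these. At 12 months the sums were 1437, 299 and 958 CPM in A, B and C, so the level did not rise steadily with age. Lyz1, the Paneth cell lysozyme, had 26.4 and 32.1 CPM at 24 months, 14.8, 5.55 and 15.6 CPM at 4 months and 40.1 to 396 CPM at 12 months (adjusted p = 0.942). Itln1, an intelectin, had 22.0 and 8.46 CPM against 2.85 to 5.35 CPM (adjusted p = 0.404). The defensin genes of this list are near-identical copies, so their counts are uncertain member by member. Small-intestinal enterocyte genes, summed, had 969 and 962 CPM at 24 months and 754 to 1168 CPM at 4 months, so the ages overlapped.

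**Figure D5:**
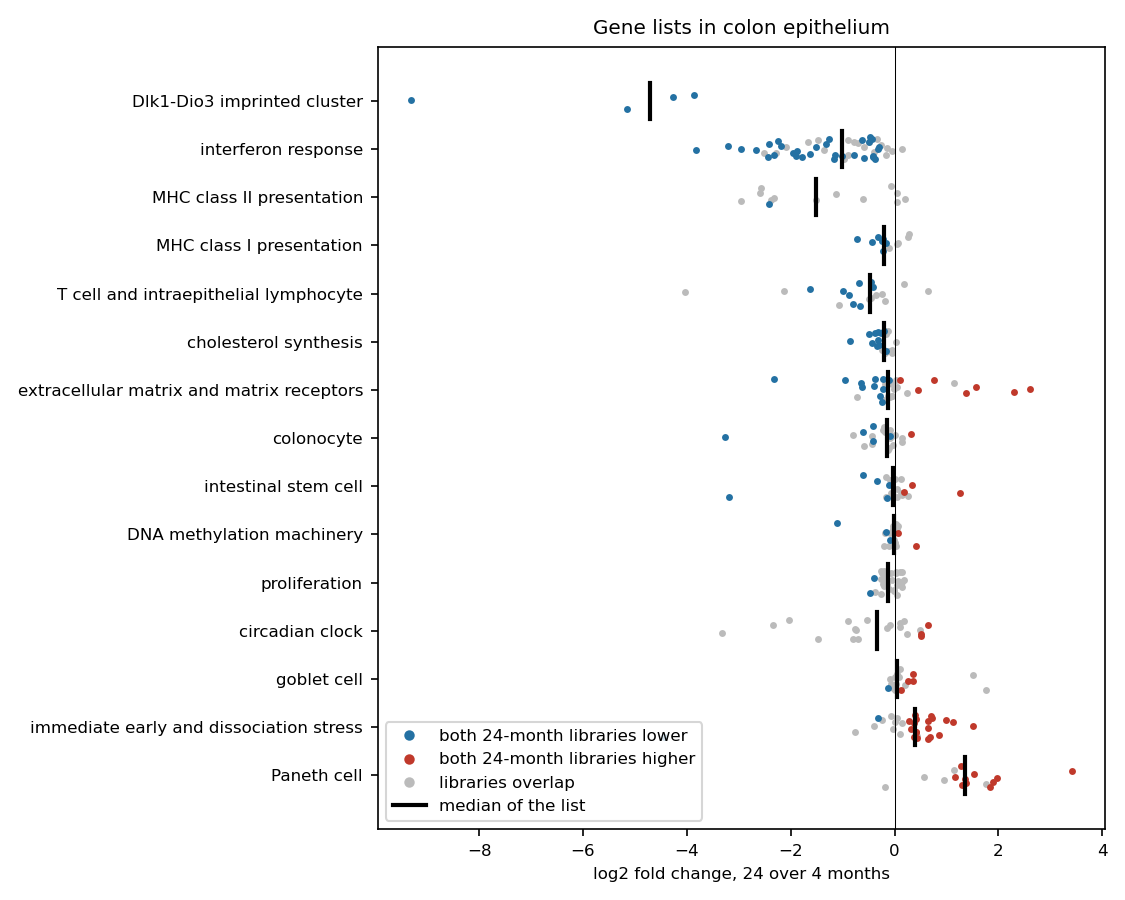
Log2 fold change of 24 over 4 months for the members of 15 gene lists, with the list median as a black bar; members whose old libraries are both below (blue) or both above (red) all young libraries are coloured, and the rest are grey. The Dlk1-Dio3 cluster, interferon response and MHC class II lists lie to the left with medians of -4.70, -1.02 and -1.52, the Paneth cell list to the right with 1.36, and stem cell, goblet cell and DNA methylation lists near 0.

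Of 21 intestinal stem cell genes, 19 genes of the DNA methylation machinery, 30 of proliferation, 22 of colonocytes, 19 of goblet cells, 20 of enteroendocrine cells and 17 of tuft cells, none passed in edgeR's quasi-likelihood test, and their medians lay between -0.15 and 0.08. Of the colonocyte genes 19 had a negative log2 fold change, and 22.7% of them and 23.8% of the stem cell genes were lower without overlap, against 13.1% of all genes. Over all genes 946 had an unadjusted p under 0.05. Lists of antimicrobial, endothelial, senescence, Notch and Wnt, fatty acid oxidation, xenobiotic metabolism, strain-variable and sex-linked genes likewise had no member that passed, with medians from -0.04 to 0.33. Lgr5, the stem cell marker whose locus carries the reporter, had 21.4 and 20.7 CPM at 24 months and 25.7, 21.7 and 31.9 CPM at 4 months (log2 fold change -0.33, SE 0.33, adjusted p = 1.0). The maintenance methyltransferase gene Dnmt1 had 90.2 and 90.0 CPM against 72.8 to 99.2 CPM, and the de novo methyltransferase gene Dnmt3a had 51.7 and 47.9 CPM against 46.2 to 50.1 CPM. Tet3, which oxidises methylcytosine, had 112 and 108 CPM against 109 to 127 CPM (log2 fold change -0.11, SE 0.10, adjusted p = 1.0).

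Among clock genes 4-month C was set apart from the other young libraries. By their summed level the 12-month libraries, at 920 to 1191 CPM, were close to 4-month C, at 1167 CPM. The sums were 658 and 727 CPM in 4-month A and B and 712 and 783 CPM at 24 months. The part of clock state in the 12-month values given above was not tested. Dbp, which the clock drives rhythmically, had 1.76 and 2.37 CPM at 24 months, 2.31 and 5.32 CPM in 4-month A and B and 54.3 CPM in 4-month C. The activator gene Arntl ran opposite, with 75.7 and 70.0 CPM at 24 months, 75.0 and 55.5 CPM in 4-month A and B and 25.2 CPM in 4-month C. Of 20 measured clock genes none passed in edgeR's quasi-likelihood test, and the median of -0.34 became 0.04 without 4-month C.

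Fitting the 8 colon libraries alone, with their lower spread between replicates (a coefficient of variation of 14.3% against 22.1% over all libraries), gave 25 higher and 26 lower genes, or 0.156% and 0.162% of 16065. Of the 26 genes of the main fit, 17 also passed there. Without 4-month C this fit gave 89 higher and 104 lower genes, whereas it gave 5 and 4 without 24-month A, 4 and 3 without 24-month B, 7 and 9 without 4-month A and 11 and 16 without 4-month B. Of the genes that passed only here, Cacna1s, a calcium channel subunit gene, had 1.76 and 0.909 CPM at 24 months and at most 0.0566 CPM at 4 months (log2 fold change 5.09, SE 0.66, adjusted p = 0.0145).

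Vsig2, an immunoglobulin-family membrane protein of the gut surface, had the smallest p among the gains that passed only in this fit, with 88.6 and 84.7 CPM at 24 months and 30.3, 22.5 and 31.1 CPM at 4 months (log2 fold change 1.63, SE 0.15, adjusted p = 0.00177). Its 12-month libraries had 52.9 to 71.1 CPM, between the ages. The ATP-gated channel gene P2rx7 had 25.5 and 23.8 CPM against 14.5 to 15.5 CPM (log2 fold change 0.70, adjusted p = 0.0222), and the fibronectin receptor subunit gene Itga5 had 33.3 and 37.3 CPM against 19.7 to 22.4 CPM (log2 fold change 0.75, adjusted p = 0.0133). None of these 3 passed in the main fit, where the adjusted p was 0.488 for Vsig2 and 1.0 for P2rx7 and Itga5.

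Among those that fell in this fit, the myelin and lymphocyte protein gene Mal, which sorts proteins to the apical membrane, had 6.91 and 6.50 CPM at 24 months and 52.1, 30.6 and 34.1 CPM at 4 months (log2 fold change -2.54, SE 0.38, adjusted p = 0.0281). Dhrs9, a retinol dehydrogenase gene, had 2.87 and 2.62 CPM against 9.52, 9.85 and 11.9 CPM (log2 fold change -1.93, SE 0.23, adjusted p = 0.0113). Ptprn, a phosphatase-like protein of hormone secretory granules, had 0.948 and 1.13 CPM against 3.27, 4.05 and 5.18 CPM (log2 fold change -2.00, SE 0.25, adjusted p = 0.0116). The young libraries lay above the old in all 3, and the main fit gave adjusted p = 0.755, 0.521 and 0.0654.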

How the data were processed

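RNA was extracted with Trizol, and libraries were prepared and sequenced by a company. The deposited values are raw counts per Ensembl gene of mm9, made by the authors with featureCounts 2.0.0 without strand, where both mates of a pair add to the count. The study's methods give Trimmomatic and STAR, without versions or settings, but TopHat2, HTSeq and Cuffdiff appear in the submitters' processing notes. The column of 4-month colon B carries a header code resembling that of a lower small intestine library, and its GEO title was followed. Symbols came from GENCODE vM1.

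Counts of all 24 libraries in 9 groups were filtered with filterByExpr, scaled with TMM and fitted with edgeR 4.0.16 (quasi-likelihood, two-sided, Benjamini-Hochberg adjusted p under 0.05) in R 4.3.3, with 15 residual degrees of freedom. Standard errors were the absolute log2 fold change divided by the square root of F. Fit and calls were tested on simulated data for this comparison over 17491 genes, where 74% of 2-fold and 91% of 4-fold changes were found, with 6 false among 171 calls. The changes were placed only in genes above a minimum mean count, so these shares do not cover genes with few counts. An exact permutation test of 2 against 3 libraries cannot go below 0.2. Total counts of the 24 libraries were at least 35068728. Colon libraries of an age differed beyond sampling noise (chi-square over its degrees of freedom at least 17).

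The comparison and the 37 gene lists, with 722 of 727 names matched, were chosen with earlier results of these data known. Named were all genes that passed, up to 10 in each direction that passed only in the colon libraries alone, and for lists described up to 6 members with the smallest p and their defining members. Oas3 lies outside this rule and was chosen after its values were seen. Some genes that meet the rule, 1 of the 26 that passed among them, are not reported here. Alternatives were DESeq2 1.42.0, a likelihood ratio test, RLE scaling, other filters, a fold threshold, replicate blocks, fewer libraries and counts divided by 2. Fits to the colon libraries alone without each library were added after seeing the data.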

Additional observations from a re-analysis of the deposited data

Results flagged for a closer look

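The age effect differed between sections by the interaction test of edgeR for 2 genes. For Rps4y2 the log2 fold change in the colon minus that in the USI was -6.99 (adjusted p = 0.00116) and minus that in the LSI -6.96 (adjusted p = 0.00128). Both old colon libraries had 0 counts of it, so the size of these differences depends on the prior count. For Gata4 both differences were 1.89 (adjusted p = 0.0322 and 0.0328), with mean levels of 3.47 CPM in the old and 0.986 CPM in the young colon.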

How the results depend on the processing

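The main counts were 13 higher and 13 lower genes in the colon and 2 genes in each interaction. A likelihood ratio test gave 49 higher and 59 lower genes and 92 (USI) and 36 (LSI) interactions, and DESeq2 gave 44, 60, 89 and 30. Both included all 13 higher and 13 lower genes. The 8 colon libraries alone gave 25 and 26, of which 7 and 10 were shared, and the 5 compared libraries alone gave 6 and 9. A log2 fold change over 1.5 left 8 higher and 12 lower. Without the 6 B libraries at 4 and 24 months 3 higher and 3 lower genes passed and 0 interactions (edgeR). Counts divided by 2 gave 18 higher and 20 lower genes and 1 in each interaction, and no low-count filter gave 9, 13, 2 and 4. Leaving out 1 library gave 4 to 7 higher, 2 to 18 lower, 1 to 4 USI and 1 to 2 LSI interaction genes, and 4 to 89 higher and 3 to 104 lower in the colon libraries alone. The cause was not tested. With the replicate block 15 higher, 17 lower, 8 USI and 7 LSI interaction genes passed, and in the colon libraries alone 18 and 15. Colon libraries of the same letter had r = 0.0312 (A) and 0.0508 (B) between the ages, and r = 0.0392 to 0.289 with the other sections at the same age, where not every pair exceeded 0.1 and the labels name no shared animals. RLE scaling gave 13 and 13. Of simulated 2-fold changes, placed only in genes above a minimum mean count, 74% were found, and detection by level was not tested.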

Other observations

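Of the 26 genes of the main comparison, 4 lie on chromosome 12, 3 each on chromosomes 6 and 9, and none on the X chromosome. Of those on chromosome 12, Meg3 and Rian are neighbours, while Gm10451 and Kcnk10 lie elsewhere on it.

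Scg3, a secretogranin gene, had 1.45 and 1.27 CPM at 24 months and 3.09, 3.79 and 3.28 CPM at 4 months (log2 fold change -1.32, SE 0.21, adjusted p = 0.0365 in edgeR's quasi-likelihood fit to the colon libraries alone, and 0.116 in the fit to all libraries). Bex4, an X-linked gene, had 0.669 and 0.717 CPM at 24 months and 3.88, 3.82 and 2.43 CPM at 4 months, and the N-acetyltransferase family gene Cml2 had 6.11 and 4.77 CPM against 0.509 to 0.718 CPM. Both passed in the colon libraries alone (adjusted p = 0.0164 and 0.00771) and not in the fit to all libraries (0.057 and 0.513).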
